A study of Homo sapiens with 6 samples.

Results

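Prostaglandin synthesis, breakdown and receptor genes were followed through TGF-β1 treatment of respiratory epithelial cells. The set held 9 genes, chosen by symbol, and each was listed once among the 25737 gene entries of the count tables. They were PTGES, PTGES2 and PTGES3 (prostaglandin E synthases), PTGS1 and PTGS2 (cyclooxygenases), PLA2G4A (cytosolic phospholipase A2), HPGD (15-hydroxyprostaglandin dehydrogenase), and PTGER2 and PTGER4 (the EP2 and EP4 receptors). The set was put together because PTGES went in opposite directions in A549 and BEAS-2B, the lines studied. Its values are therefore described here and do not stand as independent evidence of that pattern.

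The data were 3′-mRNA sequencing counts from 6 libraries, with 1 library per condition. A549 is a lung carcinoma epithelial line and BEAS-2B is an immortalized bronchial epithelial line, and both were labeled wild type. Each line was left untreated or was given TGF-β1, a cytokine used to model fibrosis, at 1 or 5 ng/mL. Treatment began 24 h after seeding and lasted 48 h. Cells were grown in RPMI medium with 10% serum, and TGF-β1 was given in the same medium with 1% serum, while the serum level of the untreated cells is not given in the sources used here. A difference in serum, if there was one, cannot be told apart from the treatment. Both are established lines, so all values describe a tumor line and an immortalized line rather than lung tissue.

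Prostaglandin E2 is made in steps. Phospholipase A2 frees arachidonic acid from membranes, a cyclooxygenase turns it into prostaglandin H2, and a terminal synthase turns that into prostaglandin E2. The dehydrogenase HPGD inactivates the product, and cells sense it through EP receptors, of which EP2 and EP4 raise cAMP. Microsomal PTGES and PTGS2 are known as the inducible forms, whereas PTGS1, PTGES2 and PTGES3 are usually described as constitutive. In lung, prostaglandin E2 is known to restrain fibroblasts.

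Total counts were 4120624 to 7841350 per library. Values below are normalized counts, meaning counts divided by the TMM-scaled library size and multiplied by the mean scaled size of the 6 libraries. The normalized data (ND) value adds 1 to the normalized count and takes log2. Genes were called at a fold change (FC) of at least 2, provided that the ND value reached 7 in at least 1 of the libraries compared. An ND value of 7 is a normalized count of 127. The count scale behind the study's own ND value is not given in the sources used here, and on the CPM scale the calls of PTGES in BEAS-2B and of PLA2G4A and HPGD in A549 are lost. No condition was replicated, so a change within a line could not be tested, a dose effect shared by the lines was not tested, and no p-value is given. The intervals in parentheses are 95% intervals for counting error only. They do not cover the spread between cultures, which these data do not show. In a culture, fewer cells of a kind and less RNA per cell cannot be told apart.

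The treatment showed in both lines. FN1 and PMEPA1 rose past the limits in 4 of 4 comparisons of a treated with an untreated library, SKIL in 3 and SMAD7 in 2. Of the epithelial markers, KRT8 and KRT18 were found in all 6 libraries. In A549 KRT8 was at 6112, 2785 and 1792 counts and CDH1 at 640, 30 and 8 at 0, 1 and 5 ng/mL. KRT8 and CDH1 were called down there at both doses. KRT18 was not called in either line, nor was KRT8 in BEAS-2B. EPCAM was at 49, 7 and 2 counts in A549, under the ND minimum. KRT19, also under it, was at 41, 22 and 9 counts in A549 and 46, 5 and 19 in BEAS-2B. In BEAS-2B CDH1 was at 0 to 2 counts and EPCAM at 0. The summed normalized counts of the 5 epithelial markers were 24830, 11180 and 10460 in A549 and 2050, 1042 and 1262 in BEAS-2B, and their part in the values below was not tested. Of the 5 type II markers, SFTPA1 and SFTPC were at 0 in all 6 libraries, SFTPB was at 0 to 2 counts and NAPSA at 0 to 12, while ABCA3 was at 72, 255 and 194 counts in A549, where it was called up at both doses, and at 23, 5 and 3 in BEAS-2B. The basal marker KRT5 was at 0 or 1 count and TP63 at 0 to 8. Of the 3 leukocyte markers, PTPRC was at 0 to 4 counts, CD68 at 51, 73 and 52 in A549 and 24, 14 and 4 in BEAS-2B, and CD14 at 57, 24 and 14 in A549 and 24, 3 and 2 in BEAS-2B. The 3 fibroblast markers summed to normalized counts of 11.6, 61.8 and 18.2 in A549, with DCN at 2, 53 and 6 counts, and to 0 to 7.56 in BEAS-2B. The endothelial CDH5 was at 0 and PECAM1 at 0 to 4 counts. The part of these markers in the values below was not tested.

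The DNA in front of 3 members is shown because these had the largest FC among the members called in treated against untreated cells: PTGES, the gene with opposite directions, and PTGS2 and PLA2G4A, which fell together in A549. Each stretch holds the 250 bases before the transcription start in RefSeq on build GRCh38.p14, 5′ to 3′ on the strand of the gene. The PTGES stretch is chr9:129753043-129753292 on the minus strand, the PTGS2 stretch is chr1:186680424-186680673 on the minus strand, and the PLA2G4A stretch is chr1:186828699-186828948 on the plus strand. Capitals mark matches on either strand to the AP-1 site (TGACTCA or TGAGTCA), the CRE core (TGACG), the SMAD box (CAGAC), the GC box (GGGCGG), the TATA box (TATAAA), the CCAAT box (CCAAT) or a C/EBP-like site (TTNNGCAA).
PTGES: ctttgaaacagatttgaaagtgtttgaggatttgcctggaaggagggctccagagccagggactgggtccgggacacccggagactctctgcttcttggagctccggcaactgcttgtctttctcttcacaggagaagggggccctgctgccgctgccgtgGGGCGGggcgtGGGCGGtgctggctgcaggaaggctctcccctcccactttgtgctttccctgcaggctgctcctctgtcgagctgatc
PTGS2: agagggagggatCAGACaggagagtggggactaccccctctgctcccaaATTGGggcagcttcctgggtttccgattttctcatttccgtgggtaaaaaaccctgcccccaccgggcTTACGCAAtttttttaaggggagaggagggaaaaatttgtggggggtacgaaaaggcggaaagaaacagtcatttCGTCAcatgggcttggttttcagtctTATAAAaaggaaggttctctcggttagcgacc
PLA2G4A: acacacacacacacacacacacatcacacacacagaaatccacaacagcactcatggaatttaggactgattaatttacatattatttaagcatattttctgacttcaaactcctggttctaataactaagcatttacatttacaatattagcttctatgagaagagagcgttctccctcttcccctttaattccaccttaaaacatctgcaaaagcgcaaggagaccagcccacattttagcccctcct

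The PTGES stretch held 2 GC boxes and no other motif of the 7 searched. The PTGS2 stretch held a CRE core at 58 to 54 bases before the start, a TATA box at 32 to 27, a C/EBP-like site at 133 to 126, a CCAAT box at 201 to 197 and a SMAD box at 238 to 234, and no 2 of these overlapped. The PLA2G4A stretch held none of the 7 and had a GC content of 38.8%, against 61.2% for PTGES, 50.4% for PTGS2 and a median of 58.0% over the 35116 promoter stretches in the table. Of all stretches, 42.6% held a GC box, 38.0% a SMAD box, 32.0% a CCAAT box, 21.2% a CRE core, 10.7% a TATA box, 9.05% a C/EBP-like site and 4.20% an AP-1 site. Among the 9 members, several of which have more than 1 start, GC boxes were in front of 7, SMAD boxes of 6, CRE cores of 4 (PTGES3, PTGS2, HPGD and PTGER2), CCAAT boxes of 3 (PTGS2, HPGD and PTGER4), TATA boxes of 2 (PTGS1 and PTGS2), a C/EBP-like site of 1 (PTGS2) and an AP-1 site of 0. The TATA match of PTGS1 lay on the strand opposite to the gene, 208 to 203 bases before 1 of its starts, far from the position of that in PTGS2. A match is a description of letters and not of binding.

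PTGES encodes microsomal prostaglandin E synthase-1, the inducible last enzyme of prostaglandin E2 synthesis. In A549 cells it was at 1677 counts without TGF-β1, 3680 at 1 ng/mL and 6865 at 5 ng/mL, which are normalized counts of 1943, 2528 and 6228. In BEAS-2B cells it was at 247, 56 and 52 counts, which are normalized counts of 276, 63.0 and 65.5. Thus all A549 libraries were above all BEAS-2B libraries, the A549 libraries climbed with dose, and both treated BEAS-2B libraries sat far under the untreated one. In A549 cells the ratio to the untreated library was 1.30 (1.23 to 1.38) at 1 ng/mL, under the fold limit, and 3.21 (3.04 to 3.38) at 5 ng/mL, where PTGES was called up. From 1 to 5 ng/mL it rose 2.46-fold (2.37 to 2.57) in A549. In BEAS-2B cells PTGES fell 4.37-fold (3.26 to 5.95) at 1 ng/mL and 4.21-fold (3.11 to 5.79) at 5 ng/mL, and the ratio between the doses was 1.04 (0.699 to 1.54). The call in BEAS-2B rests on the untreated library, the only BEAS-2B library in which the ND value of PTGES reached 7. It was lost when that minimum was asked of both libraries or was taken from CPM.

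**Figure D1:**
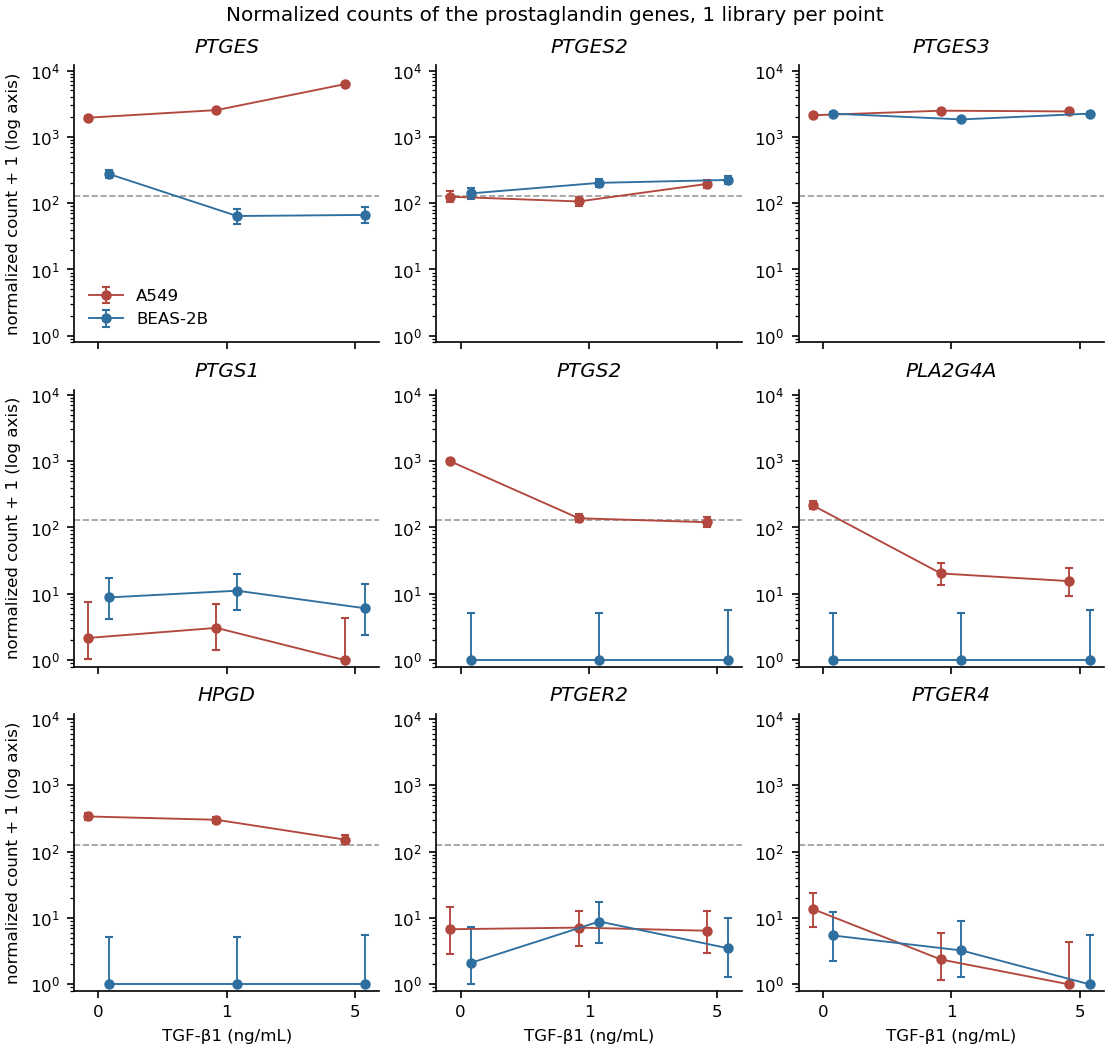
Normalized count plus 1 (log axis) of each of the 9 genes against the TGF-β1 dose, with 1 library per point, A549 cells in red and BEAS-2B cells in blue, 95% Poisson intervals as bars and the ND value of 7 as a dashed line. PTGES climbs from 1943 to 6228 in A549 and drops from 276 to 65.5 in BEAS-2B, and PTGS2, PLA2G4A and HPGD lie at 0 in all BEAS-2B libraries.

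The difference between the lines was also taken directly. The FC of PTGES in A549 was 5.69 times that in BEAS-2B at 1 ng/mL (4.23 to 7.65) and 13.5 times at 5 ng/mL (9.95 to 18.3), with intervals from the 4 counts. It was chosen for this difference, so no test was made. Across all entries that could be compared in both lines, 0.348% were called in opposite directions at 1 ng/mL and 0.223% at 5 ng/mL. At 5 ng/mL this was 13 of 5832 entries, of which 7 were up in A549 and down in BEAS-2B: CDH4, PTGES, ITGB4, SDC4, FSTL1, MVP and GXYLT2. At 1 ng/mL PTGES was not among the entries called in both lines, since its FC in A549 was below 2.

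The entries whose responses lay nearest to those of PTGES were SDC4, ITGB4, MVP, HPCAL1 and MFI2. Nearness was the Euclidean distance over the 4 log2 FC values, among 5984 entries whose ND value reached 7 in each line, and the distances were 0.794, 0.82, 1.0, 1.04 and 1.11 on the log2 scale. SDC4, the cell-surface proteoglycan syndecan-4, was at 228, 746 and 805 counts in A549 and at 3274, 1003 and 847 in BEAS-2B at 0, 1 and 5 ng/mL. ITGB4, the integrin β4 subunit of hemidesmosomes, was at 318, 948 and 950 counts in A549 and at 443, 145 and 91 in BEAS-2B. Against the untreated library of the same line, both were higher with treatment in A549 and lower in BEAS-2B. Both differed from PTGES in gaining most of their A549 change by 1 ng/mL. HPCAL1 and MFI2 did not reach an FC of 2 in A549, with log2 FC values of 0.72 and 0.71 at 5 ng/mL.

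**Figure D2:**
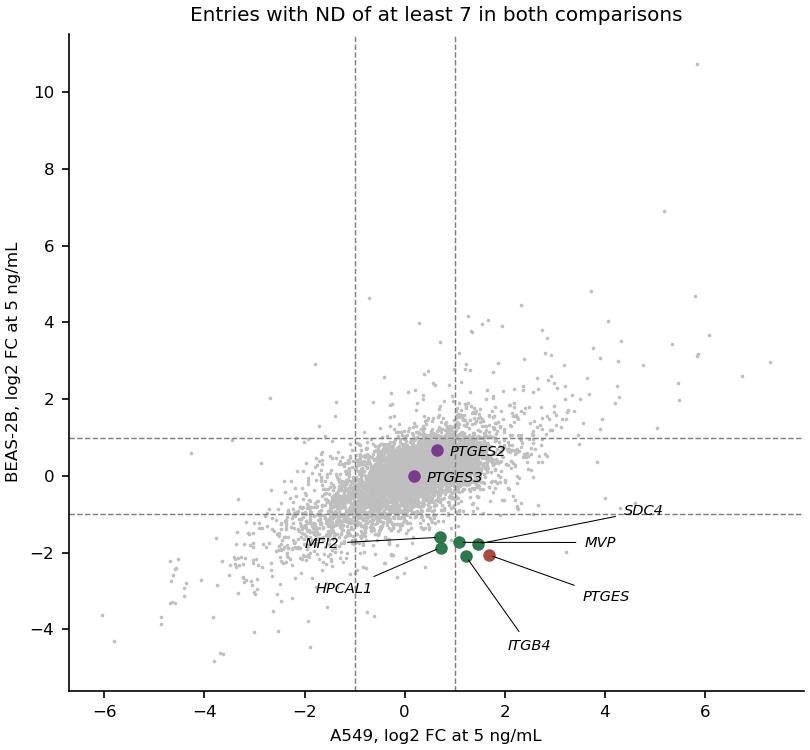
The log2 FC at 5 ng/mL in A549 (horizontal) against that in BEAS-2B (vertical) for the 5832 entries that reached an ND value of 7 in both comparisons, with dashed lines at an FC of 2, PTGES in red, its 5 nearest entries in green and PTGES2 and PTGES3 in purple. PTGES lies at 1.68 and -2.06, in the lower right corner that holds 7 called entries, while PTGES2 and PTGES3 lie inside the fold limits.

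The other E synthases did not pass the fold limit in either line. PTGES2, a membrane-associated synthase, was at 107, 153 and 214 counts in A549 and 125, 179 and 177 in BEAS-2B at 0, 1 and 5 ng/mL. Its normalized counts were 124, 105 and 194 in A549 and 139, 201 and 223 in BEAS-2B, so the ND value of 7 was missed by the A549 libraries at 0 and 1 ng/mL. The ratio at 5 ng/mL was 1.57 (1.24 to 1.99) in A549 and 1.60 (1.27 to 2.03) in BEAS-2B, so that counting error alone would allow a value near the fold limit. At 1 ng/mL it was 0.848 (0.658 to 1.10) in A549 and 1.45 (1.14 to 1.83) in BEAS-2B.

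PTGES3, the Hsp90 co-chaperone p23 that also has synthase activity, was at 1824, 3605 and 2662 counts in A549 and 2002, 1626 and 1776 in BEAS-2B. The normalized counts lay between 1830 and 2477 in all 6 libraries, and the lines overlapped. Its ratio to the untreated library was 1.17 and 1.14 in A549 and 0.819 and 1.00 in BEAS-2B at 1 and 5 ng/mL. Under scaling by total counts the sign of the log2 FC of PTGES3 at 5 ng/mL turned, to -0.01 in A549 and -0.13 in BEAS-2B. Among the entries 0 carried the name of a PTGES3 pseudogene, and how such reads were counted is not given in the sources used here. Of the 3 synthases, PTGES alone was called, at 5 ng/mL in A549 and at both doses in BEAS-2B.

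PTGS2 and PLA2G4A, which act upstream of PTGES, went the other way in A549 and had 0 counts in BEAS-2B. PTGS2, or cyclooxygenase-2, was at 857 counts in untreated A549, 199 at 1 ng/mL and 131 at 5 ng/mL, which are normalized counts of 993, 137 and 119. In BEAS-2B cells it was at 0 counts in all 3 libraries, which allows up to 0.652 to 0.728 CPM. Both treated A549 libraries were well under the untreated one, and they lay close to each other, with a ratio of 0.869 (0.692 to 1.09) between the doses. PTGS2 fell 7.26-fold (6.22 to 8.52) at 1 ng/mL and 8.35-fold (6.94 to 10.1) at 5 ng/mL, and the latter call was lost when the ND minimum was asked of both libraries.

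PLA2G4A, which frees arachidonic acid from membrane phospholipids, was at 186, 28 and 16 counts in A549 and at 0 counts in all BEAS-2B libraries. The A549 normalized counts were 216, 19.2 and 14.5, so only the untreated library reached the ND value of 7. PLA2G4A fell 11.2-fold (7.50 to 17.3) at 1 ng/mL and 14.9-fold (8.90 to 26.5) at 5 ng/mL. It was the member with the lowest ratio in A549 among those called, and its calls were lost when the minimum was asked of both libraries, was taken from CPM or was raised to 8. PTGS1, the constitutive cyclooxygenase-1, was at 1, 3 and 0 counts in A549 and at 7, 9 and 4 in BEAS-2B, too few in every library for a comparison.

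HPGD, which inactivates prostaglandins by oxidizing the 15-hydroxyl group, was at 293, 440 and 167 counts in A549 and at 0 in all BEAS-2B libraries. The A549 normalized counts were 340, 302 and 152. The untreated library and the 1 ng/mL library were close, with a ratio of 0.891 (0.766 to 1.04), and the 5 ng/mL library was lower than both. HPGD fell 2.24-fold (1.85 to 2.73) at 5 ng/mL, just past the fold limit, and the call was lost with the ND value from CPM. Against 1 ng/mL it was 1.995-fold lower (1.67 to 2.40) at 5 ng/mL, with a log2 FC of -0.99 that fell just short of a call.

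The EP receptors were near the limit of detection. PTGER2 was at 5, 9 and 6 counts in A549 and at 1, 7 and 2 in BEAS-2B, and PTGER4 was at 11, 2 and 0 counts in A549 and at 4, 2 and 0 in BEAS-2B. No library reached an ND value of 7 for either receptor. For PTGER4 in A549 the 1 ng/mL library was 9.28-fold lower than the untreated one, with a wide interval (2.02 to 86.1). The 5 ng/mL library, at 0 counts, was 4.68-fold lower when 0 is taken as the 3 counts it allows per library. The counting interval of that ratio allows as little as 3.205-fold. The value found in the same way in BEAS-2B was 1.18-fold, and the interval of the BEAS-2B ratio included 1. In the GENCODE annotation PTGER4 overlaps TTC33 on the other strand, which was at 26 to 47 counts per library.

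**Figure D3:**
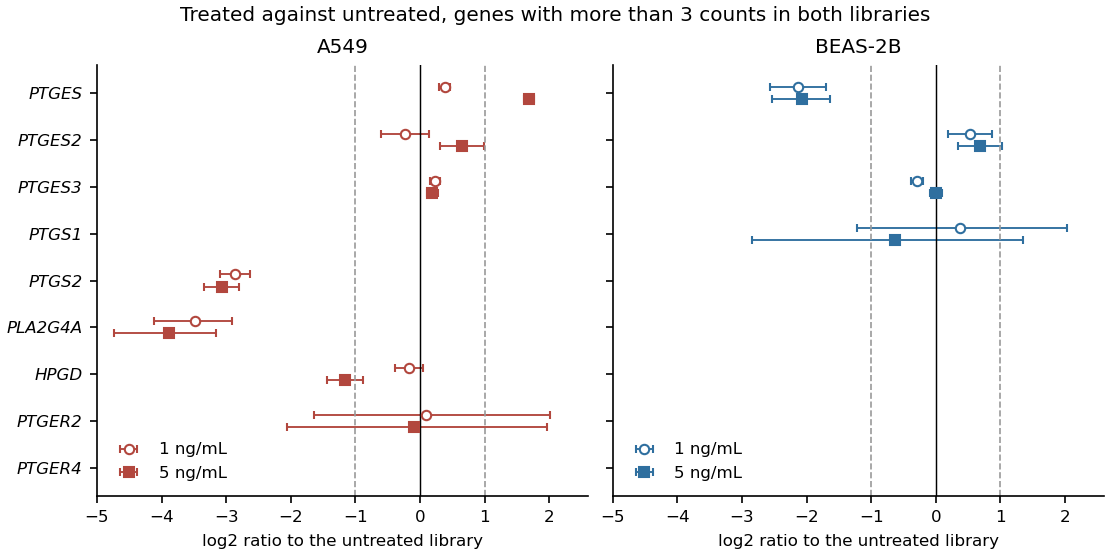
The log2 ratio to the untreated library of the same line for those of the 9 genes that could be drawn, with A549 cells on the left and BEAS-2B cells on the right. Open circles are 1 ng/mL, filled squares 5 ng/mL, bars 95% counting intervals and dashed lines a ratio of 2. Genes with 3 counts or fewer in either library are not drawn. This leaves out PTGER4 in both panels, PTGS1 in A549, and PTGS2, PLA2G4A, HPGD and PTGER2 in BEAS-2B. PTGES is right of 0 in A549 and left of -1 in BEAS-2B.

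Counted over the set, 2 of the 5 members that reached an ND value of 7 were called at 1 ng/mL in A549, both down, against 23.5% of all tested entries (10.9% up and 12.6% down). At 5 ng/mL in A549 4 of 6 were called, 1 up and 3 down, against 33.3% (16.1% up and 17.1% down). In BEAS-2B cells 1 of 3 was called at each dose, in both cases PTGES and down, against 14.8% at 1 ng/mL (5.66% up and 9.13% down) and 19.0% at 5 ng/mL (7.33% up and 11.6% down). From 1 to 5 ng/mL, 1 of 5 members was called in A549, against 3.40% of entries, and 0 of 2 in BEAS-2B, against 0.904%. Scaling by total counts lowered the median log2 FC of all tested entries to -0.07, -0.09, -0.11 and -0.10 in the order of comparisons above and lowered the share of up calls among all calls from 46.5%, 48.4%, 38.3% and 38.7% to 32.2%, 33.8%, 27.3% and 26.9%. Since these contrasts were known when the members were chosen, and since PTGS1, PTGER2 and PTGER4 never reached the minimum, the shares are descriptions of the set. The median log2 FC of the tested members was -0.17 and -0.48 in A549 at 1 and 5 ng/mL and -0.29 and 0.00 in BEAS-2B, beside 0.09, 0.11, 0.01 and 0.03 for all tested entries.

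The untreated lines already differed. PTGES was 7.05-fold lower (6.17 to 8.09) in BEAS-2B than in A549. PTGS2, HPGD and PLA2G4A were at 0 in untreated BEAS-2B. With 0 taken as the 3 counts it allows, they were 297-fold, 101-fold and 64.4-fold lower. These values leave out the counting error of the A549 counts. The counting intervals of the ratios allow as little as 240.8-fold, 81.99-fold and 51.86-fold. PTGES2 and PTGES3 were close, with ratios of BEAS-2B to A549 cells of 1.13 (0.862 to 1.47) and 1.06 (0.991 to 1.13). In this comparison 4 of the 6 tested members were called, beside 37.0% of all tested entries.

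Ratios between members within a library do not depend on the scaling between libraries. In A549 cells there were 1.96 PTGES counts per PTGS2 count without TGF-β1 (1.80 to 2.13), 18.5 at 1 ng/mL (16.03 to 21.4) and 52.4 at 5 ng/mL (44.1 to 62.8). This ratio was therefore 9.45 times and 26.8 times that of the untreated library. The ratio of PTGES to HPGD, the synthase against the dehydrogenase, was 5.72, 8.36 and 41.1, so most of its change came between 1 and 5 ng/mL. PTGES per PTGES3 count was 0.919, 1.02 and 2.58 in A549 and 0.123, 0.0344 and 0.0293 in BEAS-2B. That ratio reuses the PTGES counts for which the set was chosen, so it is no further evidence of opposite directions. The ratios compare counts at transcript 3′ ends and not amounts of enzyme.

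**Figure D4:**
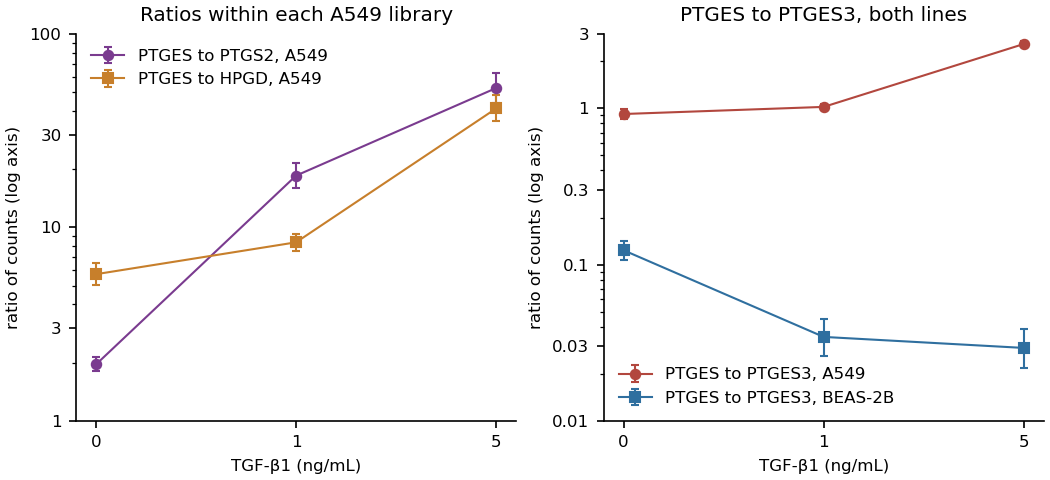
Ratios of the counts of 2 genes within each library (log axes) against the TGF-β1 dose, with 95% counting intervals, for PTGES to PTGS2 and PTGES to HPGD in A549 on the left and PTGES to PTGES3 in both lines on the right. PTGES to PTGS2 climbs from 1.96 to 52.4, and PTGES to PTGES3 climbs to 2.58 in A549 and drops to 0.0293 in BEAS-2B.

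The members also differed in their 3′-UTRs, the part of the mRNA where AU-rich elements bind factors that set mRNA stability. PTGS2 is the textbook case, and in the GENCODE principal transcript its 3′-UTR of 2562 bases held 22 copies of the pentamer ATTTA, a number reached by 2.0% of 17882 genes. The 30 bases right behind its stop codon hold 3 overlapping copies, here in capitals.
PTGS2 3′-UTR: aagtctaatgatcatATTTATTTATTTAta
PLA2G4A had 4 copies in 473 bases, which is 8.46 per kb and close to the 8.59 per kb of PTGS2, and a density reached by 2.04% of genes. PTGER4 had 9 copies (6.63 per kb), PTGES3 6 (5.28 per kb), PTGER2 5 (4.34 per kb), HPGD 5 (2.81 per kb) and PTGS1 3 (0.95 per kb). PTGES had 1 copy in 1280 bases and PTGES2 had 0 in 452. The pair with the highest density, PTGS2 and PLA2G4A, were the members called down at both doses in A549. PTGER4, next in density, was also lower there but rests on 11, 2 and 0 counts, under the ND minimum. PTGES3, next after it, was not lower in A549, with ratios of 1.17 and 1.14 at 1 and 5 ng/mL. PTGER2, which follows, had ratios of 1.07 and 0.940 on few counts. HPGD, at a lower density, was called down at 5 ng/mL only. These values are a description over 9 genes, and a link between ATTTA copies and the changes was not tested.

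The rest of the pathway was taken from 10 gene lists with 105 listed symbols, which were drawn up with earlier results of these data known. Of those that reached the ND minimum, 7 were called up and 12 down of 50 at 1 ng/mL in A549, 5 up and 16 down of 51 at 5 ng/mL, and in BEAS-2B 1 up and 11 down of 43 and 2 up and 11 down of 44. These are 38.0%, 41.2%, 27.9% and 29.5% of the genes tested, beside 23.5%, 33.3%, 14.8% and 19.0% of all tested entries. The median log2 FC of these genes was -0.01, -0.23, -0.07 and -0.06, beside 0.09, 0.11, 0.01 and 0.03 for all tested entries. The counts of calls in single lists below stand against the same shares.

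Enzymes that reduce prostaglandins were called down, and none up, in each of the 4 comparisons of a treated with an untreated library. At 5 ng/mL in A549, where 33.3% of all entries were called, 3 of 5 tested genes fell: AKR1C1 from 4658 to 77 counts, AKR1C2 from 16442 to 808 and PTGR1, the prostaglandin reductase that acts after HPGD, from 1603 to 251. PTGR1 fell 8.16-fold in A549 and 2.80-fold in BEAS-2B at 5 ng/mL, and CBR3, a carbonyl reductase, fell in BEAS-2B from 156 to 48 counts. AKR1C1 and AKR1C2 are near-identical copies, so reads may be split between them, and they stood at 0 to 4 counts in BEAS-2B. Among other terminal synthases, AKR1C3 (prostaglandin F synthase) fell 5.14-fold and AKR1B1 (aldose reductase, which also makes prostaglandin F2α) fell 3.71-fold at 5 ng/mL in A549. FAM213B, another prostaglandin F synthase, fell 2.40-fold in BEAS-2B at that dose.

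In fatty acid supply, LPCAT3, which puts arachidonic acid back into phospholipids, fell 2.24-fold in A549 and 2.79-fold in BEAS-2B at 5 ng/mL. At 1 ng/mL only, ACSL4 was called down and MBOAT7 up in A549 and MGLL down in BEAS-2B. ABCC4, an exporter of prostaglandins, was at 370, 263 and 142 counts in A549 and fell 3.33-fold at 5 ng/mL. In BEAS-2B cells ABCC4 was at 112, 34 and 39 counts, and its untreated normalized count of 125 was just under the minimum. The importer SLCO2A1 was at 0 to 2 counts in all libraries. Among the other prostanoid receptors only PTGDR2 reached the minimum, with 164 to 577 counts and no call. PTGDR2 overlaps the 3′ end of CCDC86 on the other strand, which held 296, 581 and 461 counts in A549 against 218, 577 and 461 for PTGDR2, so their reads cannot be told apart.

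**Figure D5:**
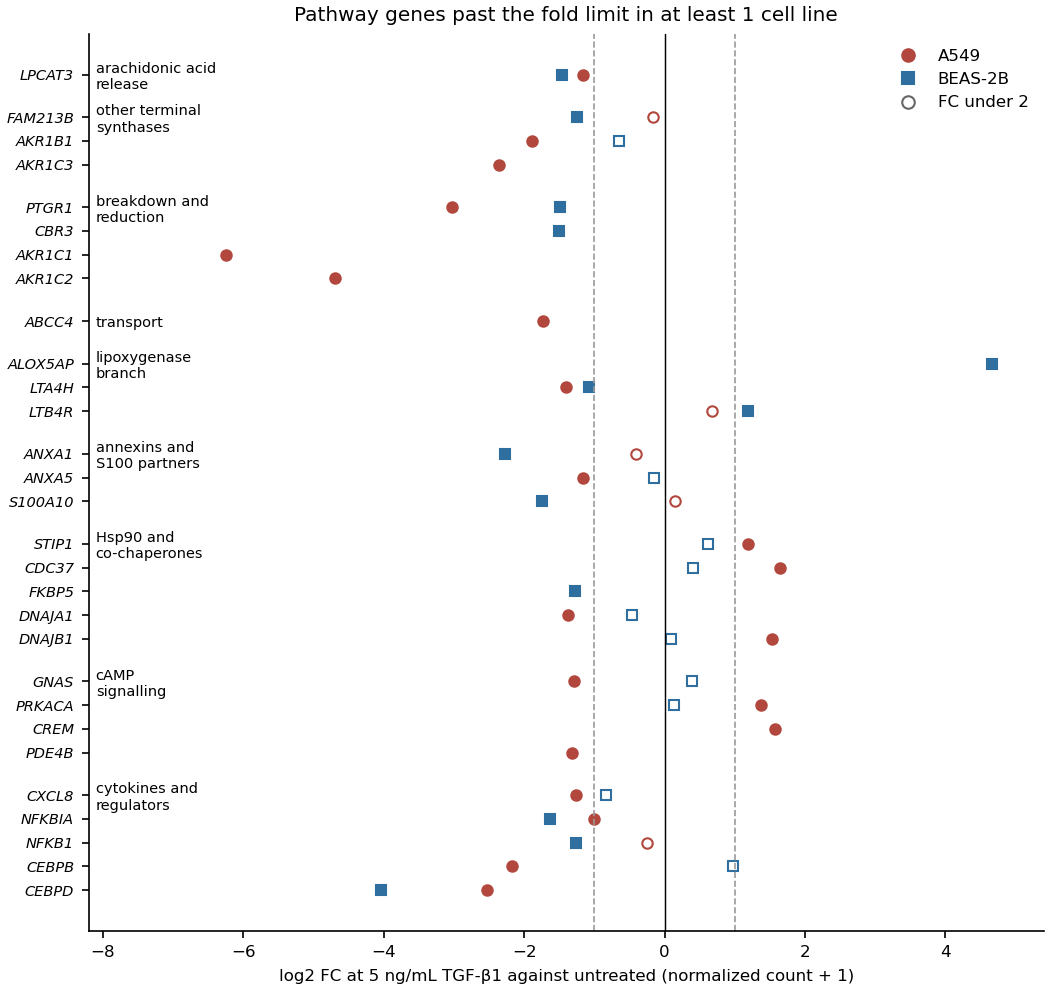
The log2 FC at 5 ng/mL of the pathway genes called in at least 1 line, grouped by list, with circles for A549 cells, squares for BEAS-2B cells, open symbols for an FC under 2 and dashed lines at an FC of 2, where a line that missed the ND minimum has no symbol. All called genes of the synthase, breakdown and transport groups lie left of -1, and ALOX5AP in BEAS-2B lies farthest right.

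In the lipoxygenase branch, which shares arachidonic acid with the cyclooxygenases, ALOX5AP was at 5, 155 and 132 counts in BEAS-2B and 3, 100 and 69 in A549. It was called up in BEAS-2B. In A549 ALOX5AP also rose, with normalized counts of 3.48, 68.7 and 62.6, but was under the ND minimum there. The 5-lipoxygenase that it serves, ALOX5, was at 0 in all BEAS-2B libraries and at 0 to 6 counts in A549. LTA4H, which makes leukotriene B4, fell 2.66-fold in A549 and 2.12-fold in BEAS-2B at 5 ng/mL, and its receptor gene LTB4R rose from 63 to 128 counts in BEAS-2B. Of the annexin group, ANXA1, known to hold back phospholipase A2, fell 4.85-fold and S100A10, the partner of annexin A2, fell 3.37-fold in BEAS-2B at 5 ng/mL, while ANXA5 fell 2.24-fold in A549.

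Around PTGES3, the Hsp90 genes themselves were not called. In A549 cells at 5 ng/mL the co-chaperones CDC37 (853 to 3419 counts), DNAJB1 (874 to 3237) and STIP1 (907 to 2642) rose and DNAJA1 (889 to 437) fell, and PPP5C rose at 1 ng/mL. FKBP5 was the only one of the 14 called in BEAS-2B, down at both doses, against 14.8% of all entries at 1 ng/mL and 19.0% at 5 ng/mL. In A549 FKBP5 was also lower with treatment, with normalized counts of 119, 33.7 and 36.3, but was under the ND minimum there. Of the cAMP genes behind EP2 and EP4, CREM rose 2.995-fold and PRKACA 2.61-fold in A549 at 5 ng/mL, PDE4B fell 2.50-fold and GNAS 2.44-fold, and PDE4A rose at 1 ng/mL. In A549 4 of the 9 tested cAMP genes were called at each dose, against the same 23.5% and 33.3%. In BEAS-2B 0 of the 5 tested were called, against the same 14.8% and 19.0%. CREM was at 32, 92 and 99 counts in BEAS-2B, with ratios of 2.90 (1.92 to 4.48) and 3.49 (2.32 to 5.38) to the untreated library, and was under the ND minimum there.

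Among cytokines and regulators known to act on PTGS2 and PTGES, no gene was called up of 8 tested in A549 and 7 in BEAS-2B, beside 10.9% and 16.1% of all entries in A549 and 5.66% and 7.33% in BEAS-2B. CEBPD, a C/EBP transcription factor, was at 1493, 789 and 328 counts in A549 and 850, 58 and 45 in BEAS-2B, and fell 5.81-fold and 16.7-fold at 5 ng/mL. CEBPB was at 892, 600 and 251 counts in A549 and fell 4.54-fold at 5 ng/mL. In BEAS-2B it was at 280, 310 and 489 counts, which are normalized counts of 312, 349 and 616. It was thus higher in both treated BEAS-2B libraries, and at 5 ng/mL it fell just short of the fold limit. NFKBIA fell 2.002-fold in A549 and 3.11-fold in BEAS-2B at 5 ng/mL, CXCL8 fell 2.42-fold in A549 and NFKB1 fell 2.40-fold in BEAS-2B. The cytokine genes IL6, IL1B and IL1A were under the ND minimum in every library. IL6 was at 0 to 10 counts. IL1B was at 2, 6 and 1 counts in A549 and 40, 23 and 15 in BEAS-2B. IL1A was at 1, 11 and 22 counts in A549 and 13, 24 and 30 in BEAS-2B. The C/EBP-like site shown above in front of PTGS2 stands beside these values as letters only, and no link between the genes was tested.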

How the data were processed

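The authors deposited raw read counts, 1 whole number per entry and library, from QuantSeq 3′-mRNA FWD libraries. The submitters' processing notes name Bowtie2, bedtools and build hg19, and the study's methods name ExDEGA. Strand use in counting is not given in the sources used here. Groups came from the sample labels.

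Counts were scaled by TMM factors over the 6 libraries (edgeR 4.0.16, R 4.3.3), and FC was taken with a pseudocount of 1 on the normalized count. The limits on FC and ND value are those of the study's DEGs, but the count scale of its ND value is not given in the sources used here, so log2 of the normalized count plus a pseudocount stands in for it. Ratios carry exact Clopper-Pearson intervals, levels exact Poisson intervals, and ratios between lines a normal approximation on the log scale. A count of 0 was taken to allow 3 counts. The files give reads and no molecular identifiers, so reads are not independent molecules and intervals and floors cover counting error only. The same control library enters both doses of a line, so the doses are not independent. The rest was done in Python 3.11.15 (scipy 1.17.1 for intervals, pandas 2.3.3 and numpy 2.4.6 for tables, matplotlib 3.10.9 for plots), and DESeq2 1.42.0 gave size factors for an alternative. The code for fold changes, calls and ratio intervals was tested on simulated data, and the other steps were not. Promoters came from RefSeq (all 9 genes matched by symbol) and 3′-UTRs from GENCODE 29, both on GRCh38, another build than that of the counts. Windows of 250 bases before each start were searched for motifs.

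The members and lists were chosen with earlier results of these data known. Named genes were all members, called genes of the lists (up to 5 per list and comparison), the 5 entries nearest to PTGES and the cell markers, of which 1 is not reported here. CDH4, FSTL1, GXYLT2, CCDC86, TTC33, ALOX5, SLCO2A1, IL6, IL1B, IL1A, ADCY6, ADCY9, PRKACB and NR4A1 were named after their values were seen. The 16 alternatives covered scaling, filter, pseudocount, depth, entries that share a symbol, the ND minimum and the FC limit. The miRNA data and the protein experiments of the study were not analysed here.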

Additional observations from a re-analysis of the deposited data

Results flagged for a closer look

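PTGES was singled out because every treated A549 library moved one way and every treated BEAS-2B library the other. Its log2 FC was 0.38 and 1.68 in A549 cells and -2.11 and -2.06 in BEAS-2B cells at 1 and 5 ng/mL. With 1 library per condition the difference was not tested, and PTGES had been chosen for it. No other member or pathway gene with a call in each line had opposite signs in this way.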

How the results depend on the processing

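No paired analysis was possible because each condition has 1 library and no test was run. Across scaling, filter, pseudocount, depth and entry alternatives, 256 of 262 log2 FC values of members stayed within their counting interval, 6 moved out of it, and none of the 8 called member values changed sign or lost its call. Scaling by total counts put the log2 FC of PTGES in A549 at 0.21 and 1.48 for 1 and 5 ng/mL. Counts of calls depend on the ND minimum and the FC limit, and the values that follow are in the order A549 1 and 5 ng/mL, then BEAS-2B 1 and 5 ng/mL, beside 2, 4, 1 and 1 members, 19, 21, 12 and 13 pathway genes and 1649, 2366, 988 and 1277 entries in the report. With the ND value of 7 asked of both libraries, 1, 2, 0 and 0 members and 747, 1099, 448 and 575 entries were called, and in BEAS-2B 4 and 4 pathway genes. With the ND value from CPM there were 1, 2, 0 and 0 members, 11, 13, 4 and 4 pathway genes and 441, 728, 272 and 357 entries, and the PTGES call in BEAS-2B was among those lost. An ND minimum of 8 left 1 member at 1 ng/mL in A549, 6 and 6 pathway genes in BEAS-2B and 1012, 1556, 604 and 797 entries, and a minimum of 6 gave 1499 entries at 1 ng/mL in BEAS-2B. Without a minimum, 2 and 2 members in BEAS-2B, 46, 43, 39 and 38 pathway genes and 6020, 7449, 5349 and 5749 entries were called. An FC limit of 1.5 gave 2 members at 5 ng/mL in BEAS-2B, 30 and 32 pathway genes in A549 and 3205, 3991, 2310 and 2789 entries. An FC limit of 3 gave 7, 9, 3 and 5 pathway genes and 674, 1090, 368 and 497 entries. Depth limits PTGS1, PTGER2 and PTGER4, and a count of 0 allows 0.383 to 0.728 CPM.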
